A study of Homo sapiens with 18 samples.

Results

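The plasma proteins that the liver secretes as carriers, as scavengers of haem and haemoglobin and as acute phase inhibitors were followed through 10 of their genes: ALB, TTR, RBP4, GC, HP, HPX, AHSG, AMBP, SERPINA1 and SERPINA3. They were chosen by name, and every probe whose RefSeq transcript belongs to one of them was used. The 10 genes are among 19740 that RefSeq names on this array, and their probes were 12 of 42405, with 3 probes for SERPINA3 and 1 for each of the other genes. All 12 probes were well above background on all 18 arrays and all passed the filter on dim probes.

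EpCAM+ cells, that is cells that carry the surface protein EpCAM, were sorted from Huh1 and Huh7, established human hepatocellular carcinoma (HCC) lines, and their total RNA was labelled with Cy3 and hybridised to 1-colour oligonucleotide arrays. Each line was left as control or was kept for 48 hours with disulfiram (DSF, 0.1 µM) or with 5-fluorouracil (5-FU, 1 µM), which gives 6 groups of 3 arrays. DSF is a drug against alcoholism that inhibits aldehyde dehydrogenase, and 5-FU is an antimetabolite of thymidine synthesis. The study's methods list DSF with copper chloride, and what the control cells received is not given in the sources used here. Each line stands for a single tumour, and the samples are described as coming from 3 independent experiments.

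Values are log2 levels relative to the array's 75th percentile, so 0 is the 75th percentile of that array's probes, and a difference of 1 is a 2-fold difference. A probe was called changed when its Benjamini-Hochberg adjusted p over the 29894 probes tested in the limma fit was under 0.05. Since a level depends on how a probe hybridises, levels are compared between arrays and never between genes. The number of arrays limits the precision, and in bulk RNA fewer cells of a type and less RNA per cell cannot be told apart.

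The arrays within a group were not equally close. Huh1 control replicate 1 stood apart from replicates 2 and 3, with a standard deviation of the log2 difference over probes of 0.248 and 0.223 against 0.115 between the latter, and Huh1 5-FU replicate 1 stood apart from the others with 0.272 and 0.267 against 0.0627. Huh7 DSF replicates 2 and 3 lay on a slide with no other group and differed from replicate 1, on the slide of the Huh7 controls, by 0.288 and 0.277. They were also scanned on another day than all other arrays. On them 70.6% and 71.1% of probes were well above background, against 64.6% on replicate 1. At the other extreme, duplicate spots differed between Huh1 5-FU replicates 2 and 3 by 1.08 times what they differed within an array, the 3 Huh7 control arrays by 1.13 to 1.14 times and Huh7 DSF replicates 2 and 3 by 1.14 times, and Huh1 DSF replicates 1 and 2 were nearly as close. With such close arrays averaged as 1 replicate, DSF in Huh7 gave 5 calls in place of 8 and DSF in Huh1 gave 7 in place of 9. The lost calls were those of ALB, HP and HPX in Huh7 and of ALB and HP in Huh1. The p-values below measure the spread between these arrays, which may be technical. On every array of each group all 8 liver and sorting markers were above background. So were 5 or 6 of 6 bile duct markers (summed level 61.4 to 233 times the 75th percentile). Of 6 blood cell markers on the array 3 or 4 were, with a summed level of 1.74 to 5.86. Of 7 stromal and endothelial markers 2 to 4 were, with a summed level of 0.334 to 0.693. Of the 8 liver and sorting markers 6 were called lower and none higher after DSF in Huh1 (median -0.60). Among all probes there 20.3% were called lower and 23.9% higher. In Huh7 3 of these markers were called lower and 2 higher (median -0.11), beside 19.4% and 27.3% of all probes. EPCAM itself, the marker of the sort, changed after DSF by -0.66 in Huh1 (adjusted p = 0.00633) and by -0.50 in Huh7 (adjusted p = 0.0294), and the part of these markers in the results was not tested.

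Albumin (ALB), transthyretin (TTR), retinol-binding protein (RBP4) and the vitamin D-binding protein (GC) carry hormones, vitamins and fatty acids in plasma. Haptoglobin (HP) binds free haemoglobin and hemopexin (HPX) binds free haem. Fetuin-A (AHSG) keeps calcium phosphate soluble, AMBP encodes the precursor of alpha-1-microglobulin and bikunin, and SERPINA1 and SERPINA3 encode antitrypsin and antichymotrypsin, inhibitors of neutrophil proteases. In inflammation interleukin-6, through STAT3 and C/EBP factors, raises the synthesis of HP, HPX, SERPINA1 and SERPINA3 in hepatocytes, whereas ALB, TTR, RBP4 and AHSG are negative acute phase proteins. Their promoters are classic targets of the liver factors HNF4, FOXA and C/EBP.

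The RefSeq promoter table held an entry for 7 of the 10 genes (ALB, RBP4, SERPINA1, SERPINA3, HPX, AHSG and AMBP). The 250 bases before the start are shown for ALB, AHSG and SERPINA1, which were called lower after DSF in both lines. Those of SERPINA3 are shown because it rose in Huh1 and fell in Huh7. These genes were picked with their changes known, and a link between motifs and changes was not tested. Capitals mark matches to any of 4 motifs, searched on both strands: TTGCNNAA (C/EBP), TTCNNNGAA (STAT), CAAAGTCCA (HNF4) and TGTTTGC (FOXA). Positions are on GRCh38.p14 and the sequences run 5′ to 3′ towards the gene.
ALB, chr4:73404037-73404286, plus strand: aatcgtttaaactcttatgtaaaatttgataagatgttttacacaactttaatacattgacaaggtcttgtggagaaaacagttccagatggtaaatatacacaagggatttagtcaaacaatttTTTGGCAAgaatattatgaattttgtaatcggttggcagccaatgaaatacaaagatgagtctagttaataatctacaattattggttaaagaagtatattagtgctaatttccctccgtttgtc
AHSG, chr3:186612810-186613059, plus strand: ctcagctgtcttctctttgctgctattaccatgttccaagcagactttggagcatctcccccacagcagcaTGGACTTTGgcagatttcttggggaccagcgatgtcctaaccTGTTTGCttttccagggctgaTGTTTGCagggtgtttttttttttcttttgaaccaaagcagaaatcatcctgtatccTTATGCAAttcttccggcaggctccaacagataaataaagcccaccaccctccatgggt
SERPINA1, chr14:94388603-94388852, minus strand: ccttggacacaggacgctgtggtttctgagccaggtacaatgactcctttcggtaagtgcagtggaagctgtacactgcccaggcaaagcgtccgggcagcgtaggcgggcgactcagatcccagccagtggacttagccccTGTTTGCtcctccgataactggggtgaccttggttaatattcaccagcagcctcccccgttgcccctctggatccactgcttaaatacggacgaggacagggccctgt
SERPINA3, chr14:94612141-94612390, plus strand: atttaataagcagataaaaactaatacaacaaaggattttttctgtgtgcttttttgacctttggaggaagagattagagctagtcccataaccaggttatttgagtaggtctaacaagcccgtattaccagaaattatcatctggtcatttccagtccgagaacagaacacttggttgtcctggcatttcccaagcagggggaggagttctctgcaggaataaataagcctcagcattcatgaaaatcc

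Among all 35116 promoters of the table, TTGCNNAA was found in 9.05%, TTCNNNGAA in 6.57%, CAAAGTCCA in 0.325% and TGTTTGC in 3.23%. The ALB promoter held TTGCNNAA 118 bases before the start, and of the 2 promoters listed for SERPINA1 the one shown held TGTTTGC 102 bases before it and the other none of the motifs. AHSG had 4 matches, with TTGCNNAA at 52, TGTTTGC at 110 and at 131 and CAAAGTCCA at 171 bases before the start. The AMBP promoter held TGTTTGC, that of HPX held TTGCNNAA, and of the 3 promoters listed for RBP4 one held TTGCNNAA and another TTCNNNGAA, while the SERPINA3 window held none of the 4 strings. Such matches are descriptions of the sequence, and binding was not measured.

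In control cells the 10 genes were present in both lines but at different levels. HP, HPX, AHSG and GC were 8.83- to 20.2-fold lower in Huh7 than in Huh1, and SERPINA3 was 89.0-fold higher. Of the 10 genes, 2 were called higher and 8 lower in Huh7 control than in Huh1 control, in a comparison where 70.7% of all probes were called, 34.5% higher and 36.2% lower. TTR and SERPINA3 were the higher ones. All Huh1 controls lay on one slide and all Huh7 controls on another. The only Huh1 array on a slide with Huh7 arrays was DSF replicate 3, so slide and line can hardly be told apart. With the slide as a block the ALB call was lost (-0.31, adjusted p = 0.0799), as it was with spike-in scaling (adjusted p = 0.445), after quantile normalization (adjusted p = 0.352) and without any 1 of 4 of the 6 control arrays. The 3 arrays of one line did not overlap those of the other for any of the 10 genes, as was so for 37.1% of probes with Huh7 higher and 40.1% with Huh7 lower.

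DSF lowered most of these genes in both lines. In Huh1 8 of 10 were called lower and 1 (SERPINA3) higher, where 44.2% of all probes were called, 20.3% lower and 23.9% higher. In Huh7 8 of 10 were called lower and none higher, where 46.7% of all probes were called, 19.4% lower and 27.3% higher. Their median change was -0.79 in Huh1 and -0.75 in Huh7, with medians over all tested probes of 0.00 and 0.08. ALB, RBP4, GC, HP, HPX, AHSG and SERPINA1 were called lower in both lines, TTR fell in Huh1, SERPINA3 fell in Huh7, and AMBP was not called in either. All 3 DSF arrays lay below all 3 controls for 8 genes in each line, as for 29.1% of all probes in Huh1 and 26.8% in Huh7, and above them for SERPINA3 in Huh1, as for 30.0% of probes there and 33.7% in Huh7.

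On the 75th percentile scale 5-FU gave another picture, and it differed between the lines. In Huh7 all 10 genes were called, 6 higher (TTR, RBP4, HPX, AHSG, AMBP and SERPINA1) and 4 lower (ALB, GC, HP and SERPINA3), where 57.1% of all probes were called, 27.3% higher and 29.7% lower. In Huh1 1 gene was called higher (AMBP) and 5 lower (ALB, RBP4, GC, HP and SERPINA1), where 48.2% of all probes were called, 22.2% higher and 26.0% lower. The arrays of the groups did not overlap for any of the 10 genes in Huh7, 6 higher and 4 lower after 5-FU (31.4% and 34.9% of all probes), and for 1 higher and 4 lower in Huh1 (25.3% and 30.8%). These 5-FU calls depend on the scale. Against the 7 spike-in probes, the 75th percentile itself was higher by 0.83 in Huh1 5-FU and by 0.98 in Huh7 5-FU than in control, whereas it moved by 0.13 and -0.18 after DSF. Scaling to the spike-ins adds 0.83 in Huh1 and 0.98 in Huh7 to the 5-FU change of every probe, which favours rises array-wide. On that scale 7 genes were called higher and 1 lower after 5-FU in each line. After quantile normalization Huh1 had 3 higher and 1 lower and Huh7 had 7 higher and 3 lower. The shares of all probes called under these 2 scalings are not given here. After DSF, the same 2 scalings gave 1 higher and 7 or 8 lower in Huh1, against 0 higher and 8 lower in Huh7. DSF and 5-FU were each set against the same control arrays, so that these comparisons are not independent.

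**Figure D1:**
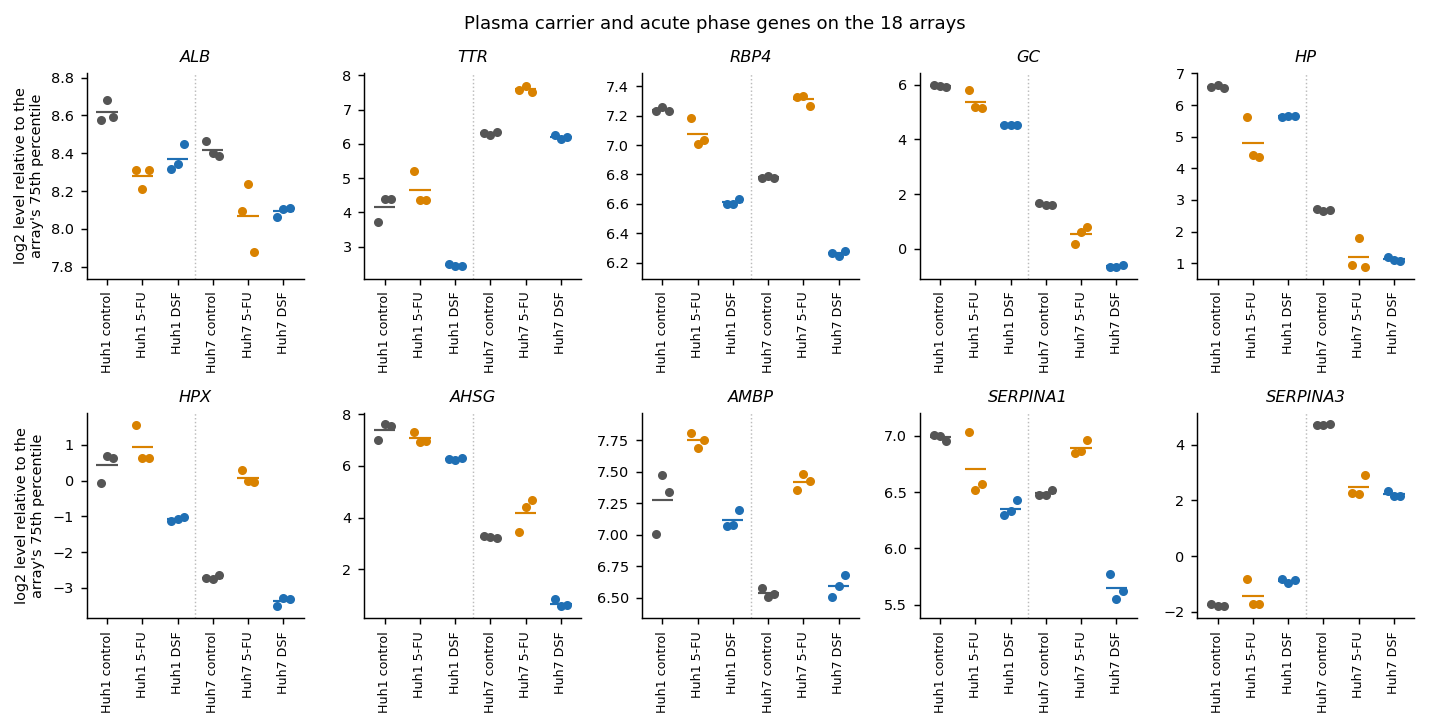
Level of each gene by its brightest probe on the 18 arrays, as log2 relative to the array's 75th percentile (vertical axis, a different range for each gene). Points are arrays in order of replicate number, lines are means of 3 arrays, grey is control, orange 5-FU and blue DSF, and the dotted line parts Huh1 from Huh7. AHSG fell from 3.22 to 3.28 in Huh7 control to 0.55 to 0.83 after DSF, and SERPINA3 lay below 0 on all Huh1 arrays and above 2 on all Huh7 arrays.

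**Figure D2:**
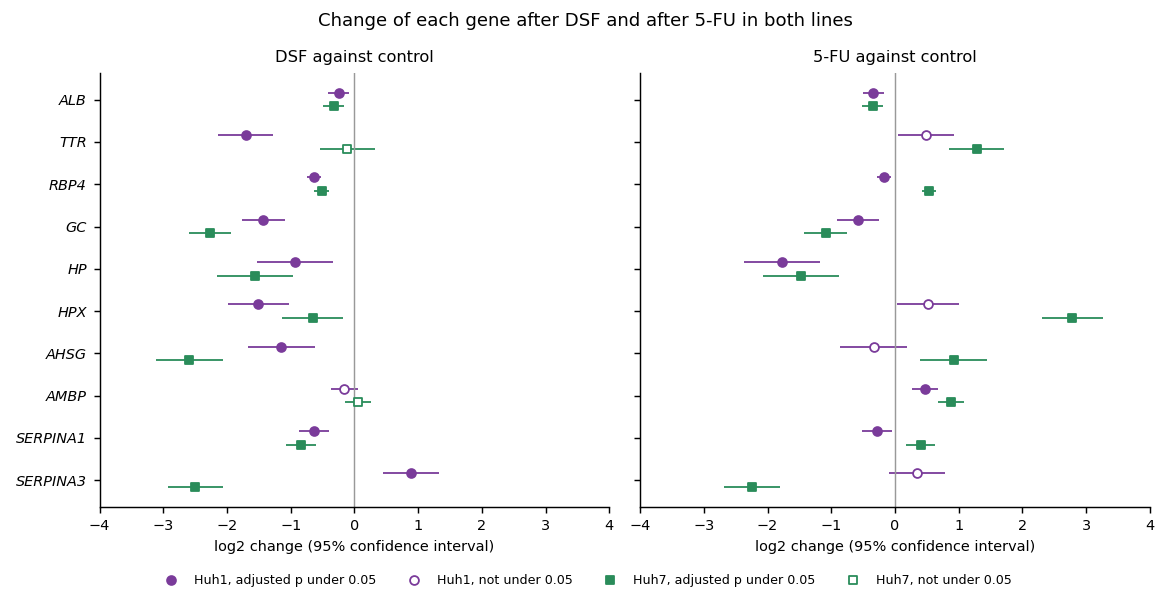
Change of each gene after DSF (left) and after 5-FU (right) against control, as log2 change with its 95% confidence interval from the limma fit. Circles are Huh1 and squares are Huh7, filled where the adjusted p was under 0.05. The DSF changes lie left of 0 for 9 of 10 genes in each line, and the 5-FU changes of HPX, TTR and AHSG in Huh7 lie to the right of those in Huh1.

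ALB encodes the main carrier of plasma. Its level in Huh1 control was 8.57, 8.68 and 8.59, and it was 8.32, 8.34 and 8.45 after DSF and 8.31, 8.21 and 8.31 after 5-FU. In Huh7 control it was 8.47, 8.40 and 8.39, in Huh7 DSF 8.06, 8.11 and 8.11, and in Huh7 5-FU 8.09, 8.24 and 7.88. Every treated array lay below every control array of its line, but the differences were small. In Huh1 DSF changed it by -0.25 (SE 0.08, adjusted p = 0.0193). The DSF change in Huh7 was -0.33 (adjusted p = 0.00365), and the 5-FU changes were -0.34 and -0.35. The call for DSF in Huh1 was lost without control replicate 2, DSF replicate 1 or DSF replicate 2, with adjusted p up to 0.0743. It was also lost with spike-in scaling (-0.11, adjusted p = 0.597) and with close arrays averaged (adjusted p = 0.157). The ALB spots reached 37.9% to 68.8% of the scanner's saturation value, and no spot of the arrays was saturated. With spike-in scaling ALB was higher after 5-FU, by 0.49 in Huh1 and by 0.64 in Huh7.

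TTR encodes transthyretin, which carries thyroxine and, bound to RBP4, retinol. Of the 4 carriers it had the largest difference between the lines in its DSF effect. In Huh1 it fell from 3.71, 4.40 and 4.38 in control to 2.50, 2.45 and 2.43 after DSF, a 3.27-fold decrease (log2 change -1.71, SE 0.20, adjusted p = 1.13e-05). In Huh7 it was 6.32, 6.25 and 6.35 in control and 6.26, 6.14 and 6.20 after DSF, and the groups overlapped (-0.11, 95% confidence interval -0.55 to 0.33, adjusted p = 0.684). The DSF effects of the 2 lines differed by 1.60 (adjusted p = 5.82e-04). After 5-FU it rose in Huh7 to 7.58, 7.70 and 7.50, which was 2.43-fold over control (adjusted p = 8.37e-05). In Huh1 5-FU the arrays gave 5.22, 4.36 and 4.38, and replicate 1 alone lay above the controls. The 5-FU change in Huh1 was 0.49 with all arrays (adjusted p = 0.063), -0.02 without the replicate 1 arrays of Huh1 control and Huh1 5-FU, 0.63 after quantile normalization (adjusted p = 0.0277), 0.51 with normexp (adjusted p = 0.0357) and 1.31 with spike-in scaling (adjusted p = 8.52e-05).

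RBP4 encodes the plasma carrier of retinol, and it had the smallest standard error of the 10 genes. It was 7.23, 7.26 and 7.23 in Huh1 control and 6.60, 6.60 and 6.63 after DSF. In Huh7 it was 6.78, 6.79 and 6.78 in control and 6.27, 6.24 and 6.28 after DSF. DSF lowered it 1.55-fold in Huh1 (-0.63, SE 0.05, adjusted p = 3.84e-07) and 1.43-fold in Huh7 (-0.52, adjusted p = 2.58e-06), and these effects differed by 0.12 (95% confidence interval -0.04 to 0.27). After 5-FU it was 7.18, 7.01 and 7.03 in Huh1 and 7.33, 7.33 and 7.27 in Huh7. The Huh7 arrays after 5-FU lay above all Huh7 controls (0.53, adjusted p = 7.53e-07). In Huh1 the change was -0.17 (adjusted p = 0.016), a call that was lost without control replicate 2 or 5-FU replicate 2 or 3, and the change was 0.66 with spike-in scaling and 0.22 after quantile normalization.

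GC encodes the vitamin D-binding protein. In Huh1 it was 5.98, 5.96 and 5.93 in control, 4.52, 4.53 and 4.53 after DSF and 5.79, 5.17 and 5.15 after 5-FU. In Huh7 it was 1.67, 1.59 and 1.61 in control, -0.67, -0.65 and -0.60 after DSF and 0.19, 0.63 and 0.78 after 5-FU. The 3 groups of each line did not overlap, and DSF gave the lowest level in both. The DSF decrease was 2.69-fold in Huh1 (-1.43, SE 0.15, adjusted p = 4.73e-06) and 4.80-fold in Huh7 (-2.26, adjusted p = 7.31e-08), and it was deeper in Huh7 by 0.83 (adjusted p = 0.00772). After 5-FU it fell by 0.58 in Huh1 (adjusted p = 0.00638) and by 1.09 in Huh7 (adjusted p = 2.95e-05). With spike-in scaling neither 5-FU change was called, at 0.25 in Huh1 and -0.11 in Huh7.

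HP encodes haptoglobin. It was 6.58, 6.62 and 6.53 in Huh1 control, 5.63, 5.64 and 5.65 after DSF and 5.63, 4.41 and 4.36 after 5-FU. In Huh7 it was 2.70, 2.66 and 2.68 in control, 1.19, 1.11 and 1.06 after DSF and 0.94, 1.79 and 0.89 after 5-FU. Both drugs lowered it in both lines with no overlap with control. The decrease after DSF was 1.91-fold in Huh1 (-0.94, SE 0.28, adjusted p = 0.0132) and 2.94-fold in Huh7 (-1.56, adjusted p = 4.05e-04), and after 5-FU it was 3.43-fold (adjusted p = 1.18e-04) and 2.77-fold (adjusted p = 3.82e-04). With close arrays averaged the DSF change was not called in either line (adjusted p = 0.0744 in Huh1 and 0.0587 in Huh7). With spike-in scaling the 5-FU change in Huh7 was -0.49 and was not called. HPR, the near-identical neighbour of HP, ran beside it with a correlation of 0.9995 over the 18 arrays, and the array cannot tell how much of either signal comes from the other transcript.

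HPX encodes hemopexin, and it moved in opposite directions under the 2 drugs in Huh7. It was -2.73, -2.77 and -2.65 in Huh7 control and 0.29, -0.02 and -0.05 after 5-FU, a 6.90-fold rise (2.79, SE 0.23, adjusted p = 1.23e-07). After DSF it was -3.50, -3.29 and -3.33, below all controls. That decrease of 0.66 had an adjusted p of 0.0279, which became 0.0505 to 0.0743 when any 1 of the 6 Huh7 control and DSF arrays was left out and 0.111 with the slide as a block. In Huh1 it was -0.06, 0.70 and 0.64 in control, -1.14, -1.07 and -1.03 after DSF and 1.56, 0.64 and 0.65 after 5-FU. DSF lowered it 2.84-fold in Huh1 (-1.51, adjusted p = 8.84e-05), with every DSF array below every control array. The 5-FU change in Huh1 was 0.52 (adjusted p = 0.0716), and it was -0.03 without the replicate 1 arrays of Huh1 control and 5-FU. It passed the threshold with normexp (0.49, adjusted p = 0.0454) and with spike-in scaling (1.35, adjusted p = 1.61e-04). The rise after 5-FU was larger in Huh7 than in Huh1 by 2.27 (adjusted p = 8.83e-05).

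AHSG encodes fetuin-A. In Huh7 it was 3.28, 3.25 and 3.22 in control, 0.83, 0.55 and 0.61 after DSF and 3.44, 4.41 and 4.67 after 5-FU. The DSF decrease of 6.02-fold (-2.59, SE 0.24, adjusted p = 1.46e-06) was the largest DSF change among the 10 genes, and after 5-FU the arrays lay above all controls (0.92, adjusted p = 0.00487). In Huh1 it was 7.02, 7.62 and 7.56 in control, 6.25, 6.22 and 6.30 after DSF and 7.31, 6.92 and 6.97 after 5-FU. DSF lowered it 2.21-fold there (-1.15, adjusted p = 0.0015), whereas the 5-FU arrays overlapped with control (-0.33, adjusted p = 0.283). The fall after DSF was larger in Huh7 than in Huh1 by 1.44 (adjusted p = 0.00436), a difference that was 1.26 with the slide as a block (adjusted p = 0.064).

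AMBP encodes the precursor that is cut into alpha-1-microglobulin, a lipocalin, and bikunin, a light chain of the inter-alpha-trypsin inhibitors. It was the exception under DSF. In Huh1 it was 7.01, 7.47 and 7.34 in control and 7.07, 7.08 and 7.20 after DSF, and in Huh7 it was 6.57, 6.51 and 6.53 in control and 6.50, 6.60 and 6.68 after DSF. The groups overlapped in both lines, with changes of -0.16 (95% confidence interval -0.36 to 0.05) and 0.06 (-0.15 to 0.26). The low first control array of Huh1 matters here, since without it the change in Huh1 was -0.29 (adjusted p = 0.00574). After 5-FU it was 7.81, 7.69 and 7.75 in Huh1 and 7.36, 7.48 and 7.43 in Huh7, above all controls of the line (0.48, adjusted p = 9.52e-04, and 0.88, adjusted p = 2.26e-06).

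SERPINA1 encodes antitrypsin, the main plasma inhibitor of neutrophil elastase. It lay between 6.95 and 7.01 on the 3 Huh1 control arrays and was 6.29, 6.34 and 6.43 after DSF. In Huh7 it was 6.47, 6.47 and 6.52 in control and 5.77, 5.55 and 5.62 after DSF. DSF lowered it 1.55-fold in Huh1 (-0.64, SE 0.11, adjusted p = 2.41e-04) and 1.79-fold in Huh7 (-0.84, adjusted p = 2.38e-05). After 5-FU it was 6.84, 6.87 and 6.96 in Huh7, above its controls (0.40, adjusted p = 0.0052). In Huh1 5-FU it was 7.03, 6.52 and 6.57 and overlapped with control. That change of -0.28 (adjusted p = 0.0442) was -0.44 without 5-FU replicate 1 and -0.19 without 5-FU replicate 2, where it was not called, and it was 0.55 with spike-in scaling.

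SERPINA3, which encodes antichymotrypsin, was the gene that DSF moved in opposite directions in the lines. In Huh1 it was -1.70, -1.80 and -1.79 in control and -0.82, -0.95 and -0.87 after DSF, a 1.85-fold rise with no overlap (0.88, SE 0.20, adjusted p = 0.00262). In Huh7 it was 4.71, 4.70 and 4.73 in control and 2.33, 2.15 and 2.17 after DSF, a 5.64-fold decrease (-2.50, adjusted p = 3.77e-07). DSF thus narrowed the gap between the lines, with a line difference, Huh7 less Huh1, of -3.38 (adjusted p = 1.12e-06). 5-FU lowered it in Huh7 to 2.28, 2.23 and 2.90, a 4.73-fold decrease (adjusted p = 3.77e-07). In Huh1 5-FU it was -0.83, -1.71 and -1.71, and replicate 1 alone lay far above the controls (0.35, adjusted p = 0.176). That change was called with spike-in scaling (1.18, adjusted p = 2.01e-04) and with the mean over the 3 probes (0.56, adjusted p = 0.0284). The other 2 probes of the gene, A_23_P2920 and A_23_P162918, moved the same way after DSF, by 1.15 and 1.29 in Huh1 and by -2.53 each in Huh7. They disagreed on 5-FU in Huh1, where A_23_P162918 was called higher (0.79, adjusted p = 0.0017) and A_23_P2920 was not (0.55, adjusted p = 0.0812).

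**Figure D3:**
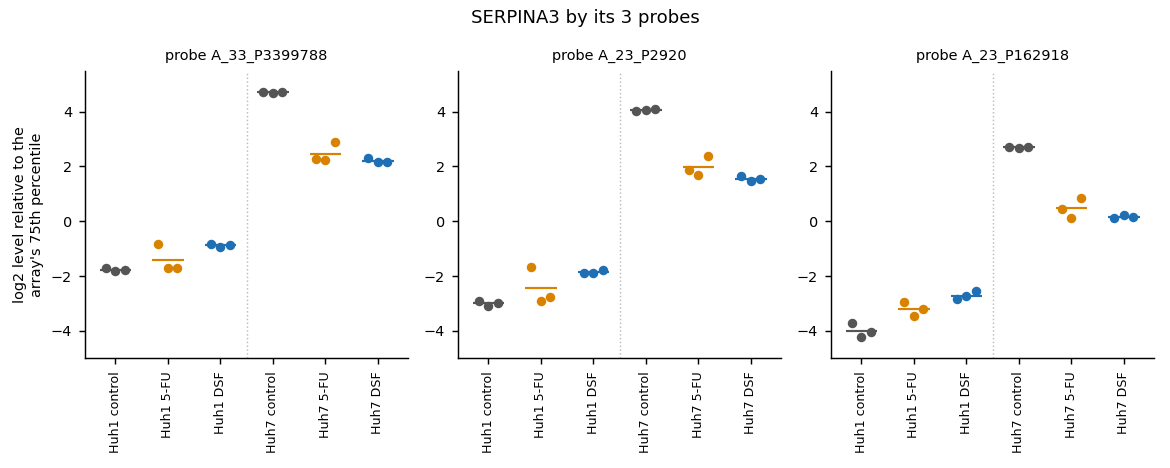
SERPINA3 on the 18 arrays by each of its 3 probes, as log2 level relative to the array's 75th percentile. Points are arrays, lines are means of 3 arrays, and colours stand for control (grey), 5-FU (orange) and DSF (blue). On all 3 probes the DSF arrays lie above control in Huh1 and below control in Huh7, and Huh1 5-FU replicate 1 lies apart from the other 2 on 2 of the probes.

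The slides gave the same picture for DSF. Within the slide that holds Huh1 DSF replicates 1 and 2 and all Huh1 controls, the changes of the 9 called genes kept their sign and their call, from -1.69 for TTR to 0.88 for SERPINA3. Within the slide that holds Huh7 DSF replicate 1 and all Huh7 controls, 7 of the 8 calls were kept with a single DSF array, whose spread is then taken from the other groups. There AHSG fell by 2.42, SERPINA3 by 2.39, GC by 2.29, HP by 1.48, SERPINA1 by 0.72, RBP4 by 0.51 and ALB by 0.36, and HPX was at -0.78 (adjusted p = 0.114). AMBP changed sign there, from 0.06 to -0.03, and was not called either way.

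The direct comparison of the drugs does not involve the controls. In Huh1 2 of the 10 genes were called higher with DSF than with 5-FU (HP and SERPINA3) and 7 lower, where 49.2% of all probes were called, 28.7% higher and 20.6% lower. In Huh7 none was called higher and 7 lower, where 60.5% were called, 35.6% higher and 25.0% lower. The DSF arrays lay below all 5-FU arrays for 7 genes in each line (26.4% of all probes in Huh1 and 26.6% in Huh7) and above them for ALB alone, in Huh1 (37.3%, and 36.8% in Huh7). The SERPINA3 call in Huh1 (0.54, adjusted p = 0.0415) came from groups that overlapped, as did that of HP, and it was lost without any 1 array of Huh1 DSF or without 5-FU replicate 2 or 3. The HP call (0.84, adjusted p = 0.0215) was lost without 5-FU replicate 2 or 3 or DSF replicate 2 or 3 (adjusted p up to 0.102), with spike-in scaling (0.15), after quantile normalization (adjusted p = 0.0582), with the slide as a block (adjusted p = 0.0603) and with close arrays averaged (adjusted p = 0.243). HPX was 4.08-fold lower with DSF than with 5-FU in Huh1 and 10.9-fold lower in Huh7, AHSG 1.76- and 11.4-fold lower, and TTR 4.57- and 2.62-fold lower. ALB, HP and SERPINA3 were not called in Huh7, with ALB at 0.02 (95% confidence interval -0.14 to 0.19). Spike-in scaling adds -0.69 in Huh1 and -1.16 in Huh7 to this comparison for every probe. All 10 genes were then called lower with DSF in Huh7, and 8 lower and none higher in Huh1. The share of all probes called on that scale is not given here.

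The lines were also compared in their responses, by the signed log2 change in Huh7 minus that in Huh1. The DSF difference was called for 5 of 10 genes, where 40.3% of all probes were called, 21.1% higher and 19.2% lower. It was positive for 2, TTR and HPX, which DSF lowered more in Huh1. It was negative for 3, namely AHSG and GC, which fell further in Huh7, and SERPINA3, which rose in Huh1 and fell in Huh7. The count was 3 with the slide as a block. The HPX difference (0.85, adjusted p = 0.0473) missed the threshold without any 1 of 10 of its 12 arrays, with spike-in scaling or quantile normalization, and with the slide or the replicate number as a block (adjusted p 0.0547 to 0.273). The 5-FU difference was called for 7 genes, where 36.6% of all probes were called, 18.8% higher and 17.8% lower. It was positive for TTR, RBP4, SERPINA1, HPX, AHSG and AMBP and negative for SERPINA3. For RBP4 and SERPINA1 the difference was 0.70 (adjusted p = 7.32e-06) and 0.68 (adjusted p = 0.00289). On the percentile scale their 5-FU change was negative in Huh1 and positive in Huh7. In Huh1 it was positive with spike-in scaling (0.66 for RBP4 and 0.55 for SERPINA1) and after quantile normalization (0.22 and 0.048). The opposite signs thus depend on the scale. The Huh1 call was lost without any 1 of 3 of its 6 arrays for RBP4, and of 5 for SERPINA1. The difference of TTR, 0.80 (adjusted p = 0.0428), was 1.31 without the replicate 1 arrays of Huh1 control and 5-FU, and it missed the threshold without any 1 of the other 10 arrays it rests on. That of AMBP (0.41, adjusted p = 0.0297) was lost without any 1 of 7 of its 12 arrays and with spike-in scaling, and that of AHSG (1.25, adjusted p = 0.0107) after quantile normalization (0.88, adjusted p = 0.0729).

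Other secreted proteins of the same kinds are set beside them, by lists of genes and not by how they moved. For each gene the change in Huh1 is given first. The counts of each list are to be read beside the shares of all probes called, which were 44.2% in Huh1 and 46.7% in Huh7 after DSF and 48.2% and 57.1% after 5-FU. DSF was followed by 12 falls and no rise among 13 tested secreted inhibitors and fetuin partners in Huh1, and by 9 falls and no rise in Huh7, with medians of -1.12 and -1.17. KNG1 (kininogen) changed by -2.39 and -2.28, SERPINF2 (alpha-2-antiplasmin) by -1.90 and -2.25 and SERPING1 (the C1 inhibitor) by -1.22 and -2.18. FETUB, the fetuin gene that neighbours AHSG, changed by -1.62 and -2.05, and in Huh7 it was well above background on 1 of the 3 DSF arrays. After 5-FU there were 5 rises and 1 fall in Huh1 and 8 rises and no fall in Huh7, among them VTN (vitronectin, 1.22 and 1.82) and ITIH2 (an inter-alpha-trypsin inhibitor heavy chain that bikunin joins, 0.63 and 1.55).

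Among 11 other plasma carriers tested, DSF raised 3 and lowered 7 in Huh1 and raised 3 and lowered 4 in Huh7. SERPINA6, the corticosteroid-binding globulin gene next to SERPINA1, changed by -1.49 and -1.46, and CP (ceruloplasmin, the copper carrier) by -0.42 and -1.26. IGFBP1, a carrier of insulin-like growth factors, rose by 3.52 and 1.61. SERPINA7, the thyroxine-binding globulin, was not well above background in either control and was at least 3.50-fold higher after DSF in Huh1 and at least 1.68-fold higher in Huh7. AFP, the fetal albumin that neighbours ALB, changed after DSF by -0.53 in Huh1 (adjusted p = 0.00911) and by 0.21 in Huh7 (adjusted p = 0.254). 5-FU raised 7 of the 11 and lowered none in Huh1, and raised 5 and lowered 2 in Huh7. AFM (afamin) rose by 0.85 and 2.37, and SHBG (sex hormone-binding globulin), not well above background in either control, was at least 2.29- and 5.58-fold higher. SERPINA7 and SHBG are counted among these rises, and SERPINA7 also among those after DSF. Both passed the filter on dim probes only through treated groups, so that a fall could hardly be called for them. AFP changed by 0.90 in Huh1 and by -0.40 in Huh7.

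Among 15 other acute phase proteins tested, DSF raised 2 and lowered 3 in Huh1 and raised 1 and lowered 11 in Huh7, with medians of -0.23 and -0.41. The 5 calls of 15 in Huh1 are a smaller share than the 44.2% of all probes. SAA4 changed by -0.79 and -2.36 and ORM2 (orosomucoid) by -0.39 and -0.30. LRG1, a leucine-rich glycoprotein of the acute phase, moved in the directions of SERPINA3, with a rise of 0.49 in Huh1 (adjusted p = 0.00114) but a change of -1.32 in Huh7 (adjusted p = 2.06e-07), and HAMP (hepcidin) in the opposite ones, with -1.83 and 0.67. 5-FU raised 4 and lowered 3 in Huh1 and raised 7 and lowered 3 in Huh7. LBP (lipopolysaccharide-binding protein) changed by -2.43 and -1.49, while the fibrinogen chains FGA (1.28 and 0.33) and FGB (0.78 and 1.40) rose.

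Among 14 genes of interleukin-6 and acute phase signalling, DSF raised 6 and lowered 2 in Huh1 and raised 4 and lowered 4 in Huh7, where 44.2% and 46.7% of all probes were called. SOCS3, the feedback inhibitor that STAT3 induces, changed by 1.48 in Huh1 (adjusted p = 0.0184) and by -1.81 in Huh7 (adjusted p = 0.00576). Its 3 Huh1 control arrays had a standard deviation of 1.31, against 0.05 in Huh7 control. SOCS3 was higher in Huh7 control than in Huh1 control by 3.72, and SERPINA3 by 6.48. HP, HPX and SERPINA1, which interleukin-6 also raises in hepatocytes, differed the other way, by -3.90, -3.14 and -0.50. LRG1 differed by 0.08 (adjusted p = 0.503). Of the 15 other acute phase proteins tested, 5 were called higher and 9 lower in Huh7 control. In that comparison 70.7% of all probes were called, 34.5% higher and 36.2% lower. A link between SOCS3 and SERPINA3 was not tested. After DSF, JAK2 rose by 0.81 and 0.31, and IL6R, the interleukin-6 receptor, changed by -0.38 in Huh1 and by 0.99 in Huh7. 5-FU raised 3 and lowered 2 in Huh1 and raised 7 and lowered 4 in Huh7, with IL1R1 at -1.07 and -1.71 and JAK2 at 0.58 and 0.75.

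Among 14 liver transcription factors, DSF lowered 9 and raised 1 in Huh1 and lowered 7 and raised 1 in Huh7. HNF4A changed by -0.90 and -0.67, NR1H4 (the bile acid receptor FXR) by -0.61 and -1.01, ONECUT1 by -0.74 and -0.30 and NR5A2 by -0.49 and -0.45. FOXA1 changed by -0.70 in Huh1 and by 0.29 in Huh7. 5-FU raised 4 and lowered 4 in Huh1 and raised 4 and lowered 6 in Huh7, where 48.2% and 57.1% of all probes were called, with CEBPD at -0.95 and -0.93 and FOXA3 at 0.64 and 0.46. The medians of these factors, -0.44 and -0.19 after DSF and -0.04 and -0.12 after 5-FU, stand beside those over all probes of 0.00 and 0.08 and of -0.03 and -0.05.

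Of 12 receptors and partners that bind the 10 proteins, 9 were tested. HPR, whose signal cannot be parted from that of HP, is among them and was called lower after both drugs in both lines. DSF lowered 5 and raised 1 in Huh1 and lowered 6 and raised 2 in Huh7. ASGR1, a chain of the receptor that clears desialylated glycoproteins, changed by -0.77 and -2.58, LRP1, an endocytic receptor of protease-inhibitor complexes, by -0.80 and -1.36, and FCGRT, the receptor that recycles albumin, by -1.18 and -0.80. STRA6, the receptor of RBP4, was not well above background on any array of Huh1 control, Huh1 5-FU or Huh7 DSF. It was at least 2.04-fold higher after DSF than in control in Huh1, and at least 3.40-fold lower in Huh7. 5-FU raised 1 and lowered 3 in Huh1 and raised 2 and lowered 3 in Huh7. Spike-in scaling would add 0.83 and 0.98 to every 5-FU change of these lists, and 0.13 and -0.18 to every DSF change.

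Across the 18 arrays some of the 10 genes ran closely together. The Pearson correlation was 0.962 for HP and GC, 0.947 for AHSG and GC, 0.955 for RBP4 and SERPINA1 and 0.947 for HPX and AMBP, while SERPINA3 was negatively correlated with each of the other genes but TTR, from -0.27 with RBP4 to -0.82 with GC. Outside the 10 genes, the pattern of AHSG was most like that of CP (0.9957), that of HPX most like that of CPN1 (0.9876), a subunit of carboxypeptidase N, and KNG1 was second in likeness to RBP4 (0.962). For the others the most similar of 15842 genes was DNM2 for ALB (0.9435), BEX3 for TTR (0.9906), NCKAP5 for RBP4 (0.9776), IGFLR1 for GC (0.9932), EVA1A for AMBP (0.9676), GJB1 for SERPINA1 (0.9635) and AK7 for SERPINA3 (0.9899). These values describe 18 arrays in 6 groups that share lines and treatments, so that they largely follow the group means.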

How the data were processed

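The 18 deposited scanner files hold 1-colour spot intensities that the authors extracted with Agilent Feature Extraction 10.7.1.1 per the file headers. The processed intensity is background-subtracted and detrended, and low values are replaced by a surrogate. The deposited value table holds intensities of the same arrays on a linear scale that the authors divided by each array's 75th percentile in GeneSpring (column medians 0.0675 to 0.0824, 75th percentile 1), and served as an alternative. Array probes were named through RefSeq accessions (GRCh38.p14 table), which matched 25771 of 27134 probes with such an accession.

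Spots flagged as outliers and control spots were left out, spots of a probe were averaged, and log2 values were set relative to the array's 75th percentile. The fit was made on 29894 probes, those that passed the scanner's background test on every array of some group. One limma 3.58.1 fit (lmFit and eBayes, R 4.3.3) covered all 18 arrays and 6 groups, with Benjamini-Hochberg adjustment over all tested probes and a threshold of 0.05. A gene was read from its brightest probe. An exact permutation test of 3 against 3 arrays cannot give a p below 0.1. Arrays give no read depth, and the number of arrays limits the precision.

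The members and lists were chosen with earlier results of these data known. All members are named. From each of the 6 other lists the text takes genes from at most 4 per drug with calls of like sign in Huh1 and Huh7, those with the largest mean change, and at most 2 called in opposite directions, and for likeness from the 3 genes with the highest correlation. One gene that this rule names is not reported here. EPCAM, AFP after DSF and SOCS3 in control were added after their values were seen, and so were the control differences set beside SOCS3. The 12 alternatives fixed at the outset included leaving out each of the 18 arrays, and 2 more were chosen after seeing the data. Mean spot signals were not used, so normexp background correction (offset 50) took the median spot and local background intensities as deposited.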

Additional observations from a re-analysis of the deposited data

Results flagged for a closer look

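The effects of a drug in the 2 lines were tested against each other in the limma fit over all 18 arrays, and the genes below had different effects in Huh7 and in Huh1. Each value is the log2 effect in Huh7 minus that in Huh1. With 3 arrays in each group, no formal test for an outlying array was made.

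For DSF the difference was 1.60 for TTR (adjusted p = 5.82e-04), which fell in Huh1 and was not called in Huh7. It was -3.38 for SERPINA3 (adjusted p = 1.12e-06), which rose in Huh1 and fell in Huh7. It was 0.85 for HPX (adjusted p = 0.0473), -1.44 for AHSG (adjusted p = 0.00436) and -0.83 for GC (adjusted p = 0.00772), which fell in both lines. The HPX difference missed the threshold without any 1 of 10 of the 12 arrays it rests on (adjusted p up to 0.112), with spike-in scaling (0.54, adjusted p = 0.273), after quantile normalization (adjusted p = 0.0547), without a filter on dim probes (adjusted p = 0.0704), with the slide as a block (adjusted p = 0.23) and with the replicate number as a block (adjusted p = 0.0705).

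For 5-FU the difference was 0.80 for TTR (adjusted p = 0.0428), 0.70 for RBP4 (adjusted p = 7.32e-06) and 0.68 for SERPINA1 (adjusted p = 0.00289). It was -2.59 for SERPINA3 (adjusted p = 1.21e-05), 2.27 for HPX (adjusted p = 8.83e-05), 1.25 for AHSG (adjusted p = 0.0107) and 0.41 for AMBP (adjusted p = 0.0297). The TTR difference was lost without any 1 of 10 of its 12 arrays, and the AMBP difference without any 1 of 7 of its 12 arrays (adjusted p up to 0.0735) and with spike-in scaling (adjusted p = 0.0524). The AHSG difference was 0.88 after quantile normalization (adjusted p = 0.0729).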

How the results depend on the processing

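Of 1830 recomputed values for the 10 genes, 1641 kept their direction and their side of the threshold, 122 lost a call, 27 gained one and 40 changed sign. Of 71 called results 45 kept both under every alternative. Averaging arrays that differ by little more than spot noise as 1 replicate leaves fewer samples. DSF then gave 7 calls in Huh1 and 5 in Huh7, 5-FU in Huh7 7, 5-FU in Huh1 3, DSF against 5-FU in Huh1 5, the line difference in the DSF effect 2 and that in the 5-FU effect 3. The line difference in the DSF effect gave 3 calls both with the slide as a block and without the slide that holds 1 group. With 1 array left out the called genes numbered 8 to 10 for DSF in Huh1, 7 to 8 for DSF in Huh7, 5 to 6 for 5-FU in Huh1, 10 for 5-FU in Huh7, 7 to 9 and 7 for DSF against 5-FU in Huh1 and Huh7, 9 to 10 between the controls, and 4 to 6 and 5 to 8 for the line differences in the DSF and 5-FU effects.

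Spike-in scaling gave 10 calls for DSF against 5-FU in Huh7 in place of 7. Changes of sign came mostly from scaling, and the cause was not tested. With spike-in scaling AMBP after DSF in Huh7 was -0.12, and after 5-FU in Huh1 ALB was 0.49, RBP4 0.66, SERPINA1 0.55, AHSG 0.49 and GC 0.25, while ALB after 5-FU in Huh7 was 0.64. DSF against 5-FU then gave -0.60 for ALB and -0.16 for SERPINA3 in Huh1 and -1.14 for ALB in Huh7, and the line differences were -0.20 (RBP4) and -0.10 (AMBP) for DSF and 0.14 (ALB) for 5-FU. After quantile normalization AMBP after DSF in Huh7 was -0.058, ALB, RBP4, SERPINA1 and AHSG after 5-FU in Huh1 were 0.13, 0.22, 0.048 and 0.064, ALB after 5-FU in Huh7 was 0.21, ALB with DSF against 5-FU was -0.31 and -0.63, and the line differences were -0.015 (RBP4, DSF) and 0.080 (ALB, 5-FU). With the slide as a block, and without the slide that holds 1 group, AMBP after DSF in Huh7 was -0.033 and ALB with DSF against 5-FU in Huh7 -0.0083. With normexp the latter was -0.044 and the ALB line difference for 5-FU 0.056. Without Huh1 control 1 and Huh1 5-FU 1, TTR and HPX after 5-FU in Huh1 were -0.024 and -0.028, and the ALB line difference for 5-FU 0.027. Leaving out 1 array moved DSF against 5-FU in Huh7 from -0.073 to 0.11 for ALB and from -0.24 to 0.21 for HP, and the ALB line difference for 5-FU from -0.095 to 0.085.

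Replicate numbers did not pair the arrays, since the deviations of same-numbered arrays correlated between -0.0932 and 0.0244. With the replicate number as a block, the called genes fell from 5 to 4 for the line difference in the DSF effect and from 7 to 6 for that in the 5-FU effect, and the other 7 counts were unchanged.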
